A study of Homo sapiens with 11 samples.

Results

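The 8 metallothionein genes MT1A, MT1E, MT1F, MT1G, MT1H, MT1M, MT1X and MT2A were taken by gene symbol from a deposited expression table of 58699 genes, and each symbol matched 1 record. The cells were HCT116, a human cell line established from a colorectal carcinoma, and the measurement was by sequencing total RNA depleted of ribosomal RNA. Cells were transfected with a control siRNA to luciferase (siLuc) or with one to the RNA-binding protein Staufen1 (siStau1), and were given the solvent DMSO or decitabine (DAC), which the labels put at 500 nM and 5 days. Crossing these gave 4 groups of 2 libraries each, namely siLuc with DMSO, siLuc with DAC, siStau1 with DMSO and siStau1 with DAC, so every control cell also went through siRNA transfection. The table holds 1 FPKM per gene and group (fragments counted, scaled to transcript length and to the size of the library), so a value has no error of its own, the depth of the libraries is unknown, and no difference can be set against a spread between replicates measured here. The labels do not say whether the 2 libraries of a group came from separate cultures. Any spread between libraries behind the deposited p-values may therefore be technical.

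Metallothioneins are small, cysteine-rich proteins that bind zinc, copper and cadmium and buffer free zinc in the cell. The MT1 genes, MT2A, MT3 and MT4 lie in a cluster on the long arm of chromosome 16. The transcription factor MTF1 senses zinc and switches several of them on through metal response elements in their promoters, and glucocorticoids and oxidative stress are further known inducers. Promoters of metallothionein genes, MT1G and MT1E among them, are known to be methylated and silent in some tumours. Decitabine is a cytidine analogue that traps DNA methyltransferases and lowers DNA methylation as cells divide. DNA methylation was not measured in these files.

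The promoters are shown because metal response elements and CpG sites both lie there. Of the 8 genes, 3 matched an entry in the RefSeq promoter table (GRCh38.p14), namely MT2A, MT1X and MT1H. MT1A, MT1E, MT1F, MT1G and MT1M did not match. Each line gives the 250 bases before the start that RefSeq annotates, on the plus strand, 5′ to 3′, at chr16:56608334-56608583 for MT2A, chr16:56682220-56682469 for MT1X and chr16:56669564-56669813 for MT1H. For MT2A and MT1X the GENCODE gene bounds given below begin upstream of the RefSeq start, so these windows lie wholly (MT2A) or partly (MT1X) within them. Capitals mark every match to the core of the metal response element, searched as TGCACNC and TGCGCNC on both strands.
MT2A promoter: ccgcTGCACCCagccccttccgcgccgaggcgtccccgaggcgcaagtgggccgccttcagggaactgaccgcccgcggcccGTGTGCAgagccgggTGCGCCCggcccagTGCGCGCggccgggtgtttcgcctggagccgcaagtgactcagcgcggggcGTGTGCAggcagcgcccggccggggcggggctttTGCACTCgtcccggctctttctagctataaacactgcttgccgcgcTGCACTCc
MT1X promoter: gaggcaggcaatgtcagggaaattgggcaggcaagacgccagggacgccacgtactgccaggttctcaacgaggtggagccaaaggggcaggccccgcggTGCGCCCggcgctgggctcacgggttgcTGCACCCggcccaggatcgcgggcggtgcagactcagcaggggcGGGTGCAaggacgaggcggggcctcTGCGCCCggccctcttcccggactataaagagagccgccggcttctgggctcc
MT1H promoter: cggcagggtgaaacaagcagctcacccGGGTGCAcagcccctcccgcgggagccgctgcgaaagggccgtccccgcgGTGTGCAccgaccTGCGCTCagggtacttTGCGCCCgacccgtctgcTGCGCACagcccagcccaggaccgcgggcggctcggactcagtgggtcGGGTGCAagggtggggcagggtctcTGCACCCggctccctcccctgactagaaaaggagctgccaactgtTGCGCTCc
The MT1H window held 8 matches, the MT2A window 7 and the MT1X window 4. Counting back from the start at -1, all 3 windows had a match at -53 to -47, or at -54 to -48 in MT2A. MT1H and MT1X shared a further match at -78 to -72 on the minus strand, and MT2A and MT1H shared one at -8 to -2. Of all 35116 windows of the same length, 24.8% held a match of either form, 0.0171% held at least as many as MT1H, 0.0313% at least as many as MT2A and 0.370% at least as many as MT1X. The MT2A window had 32 CpG sites, and the MT1X and MT1H windows had 22 each, against a median of 11 in all windows. High CpG counts were more common among all windows than high match counts: 9.52% of windows had at least as many CpG sites as MT2A and 28.0% at least as many as MT1X or MT1H. MT1B and MT4, metallothionein genes of the same cluster that are not among the 8, had 3 matches each but 7 and 6 CpG sites. A match to these letters is a description of the sequence, and binding was not measured.

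The coding sequences are shown because the genes are close copies, and reads from one can align to another. In GENCODE release 29 each of the 8 has 3 exons and 183 coding bases before the stop codon. Over the 28 pairs the identity ran from 88.5% (MT1F and MT1X) to 95.1% (MT1G and MT2A), with a median of 91.8%. Capitals mark the bases that differ, 9 between MT1G and MT2A in the first pair and 14 between MT1E and MT2A in the second.
MT1G: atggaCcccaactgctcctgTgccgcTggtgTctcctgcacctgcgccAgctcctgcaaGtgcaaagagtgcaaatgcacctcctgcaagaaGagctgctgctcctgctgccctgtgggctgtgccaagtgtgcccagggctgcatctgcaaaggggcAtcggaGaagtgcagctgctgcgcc
MT2A: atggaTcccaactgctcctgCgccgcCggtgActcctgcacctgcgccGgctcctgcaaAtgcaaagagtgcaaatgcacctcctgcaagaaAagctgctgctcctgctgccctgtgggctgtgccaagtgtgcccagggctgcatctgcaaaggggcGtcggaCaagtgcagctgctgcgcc
MT1E: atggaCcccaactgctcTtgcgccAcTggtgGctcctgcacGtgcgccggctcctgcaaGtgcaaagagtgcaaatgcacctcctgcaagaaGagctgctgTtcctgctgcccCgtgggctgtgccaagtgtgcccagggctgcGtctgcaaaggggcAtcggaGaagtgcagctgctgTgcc
MT2A: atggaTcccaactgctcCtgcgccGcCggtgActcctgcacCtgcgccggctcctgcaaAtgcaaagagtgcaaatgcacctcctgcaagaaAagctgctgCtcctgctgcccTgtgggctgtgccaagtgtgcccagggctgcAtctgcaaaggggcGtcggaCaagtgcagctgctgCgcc
Over the whole transcript used, including both untranslated ends, 4.88% of 50-base windows of MT2A, 5.34% of MT1E, 3.59% of MT1F, 5.76% of MT1A and 7.05% of MT1M also occurred in a transcript of another gene. The share was higher for MT1G, at 20.2%, for MT1H, at 20.4%, and for MT1X, at 45.1%. Much of the MT1X share was with AC026461.1, which overlaps it on the same strand and was listed at no more than 0.364 FPKM in any group. At 100 bases the share was 0 for 6 of the genes, 3.36% for MT1H and 19.1% for MT1X. How the authors shared such reads between genes is not given in the sources used here, so the low values of MT1F, MT1G, MT1H, MT1A and MT1M beside the abundant MT2A and MT1E are uncertain.

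FPKM is scaled to transcript length, so levels can be set side by side between genes. MT2A (ENSG00000125148.6, GRCh38 chr16:56608199-56609497, plus strand), the most widely expressed human metallothionein, stood at 78.7 FPKM with DMSO and 257 with DAC in siLuc cells, and at 73.6 with DMSO and 134 with DAC in siStau1 cells. MT1E (ENSG00000169715.14, chr16:56625475-56627112, plus strand) stood at 68.8, 268, 71.5 and 176 FPKM in the same order of groups. Both were lowest in the 2 DMSO groups, highest in siLuc DAC and between these in siStau1 DAC. MT1X (ENSG00000187193.8, chr16:56682424-56684196, plus strand) had the same order at a lower level, with 16.2, 55.1, 12.4 and 37.1 FPKM. These 3 genes carried nearly all of the metallothionein signal, between 97.1% and 98.2% of the summed FPKM of the 8 genes in every group.

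MT1F (ENSG00000198417.6, chr16:56657694-56660698, plus strand) was the only other of the 8 above 1 FPKM in the DMSO groups, at 2.87 FPKM with DMSO and 5.67 with DAC in siLuc cells and 3.67 and 2.85 in siStau1 cells. It did not follow the abundant genes: its siStau1 DAC value was the lowest of its 4. MT1G (ENSG00000125144.13, chr16:56666731-56668065, minus strand) was listed at 0 in both DMSO groups, at 6.17 FPKM with DAC in siLuc cells and at 4.67 with DAC in siStau1 cells. MT1A (ENSG00000205362.11, chr16:56638666-56640087, plus strand) was also listed at 0 in both DMSO groups, with 2.12 (siLuc) and 0.827 FPKM (siStau1) after DAC. MT1G and MT1A thus had the same pair of listed zeros, and both had a value in the 2 groups that received DAC.

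MT1H (ENSG00000205358.3, chr16:56669814-56671129, plus strand) went from 0.202 FPKM without to 2.43 with DAC in siLuc cells, and from 0.134 to 1.96 in siStau1 cells. MT1M (ENSG00000205364.3, chr16:56632233-56633986, plus strand) was listed at 0 in both DMSO groups, at 0.517 and 0.0747 FPKM after DAC in siLuc and siStau1 cells, and stayed under 1 FPKM throughout. A value listed at 0 can be a failed estimate in this table. RPS29, a ribosomal protein gene that every cell uses, was listed at 0 in 3 of the groups and at 243.7 FPKM in siStau1 DMSO. The cases are not fully alike: RPS29 carries the status LOWDATA and no test, while MT1G and MT1A were tested with DAC. No fold is therefore given against a 0, and the log2 ratios of MT1G, MT1A and MT1M over a listed 0 are set in size by the 0.1 added to each FPKM. For MT1G with DAC in siLuc, adding 0.01, 0.1 or 1 gave 9.27, 5.97 or 2.84.

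In siLuc DMSO the order of levels was MT2A, MT1E, MT1X, MT1F and MT1H, followed by the genes listed at 0. In siLuc DAC it was MT1E, MT2A, MT1X, MT1G, MT1F, MT1H, MT1A and MT1M. As a ratio to MT2A, the MT1E level was 0.875 without and 1.04 with DAC in siLuc cells, and 0.972 without and 1.31 with DAC in siStau1 cells. With 1 value per group, whether neighbours in these orders differ was not testable. Among all genes ranked by FPKM, MT1E moved from rank 1483 in siLuc DMSO to 435 in siLuc DAC, and from 1445 to 565 in the siStau1 groups. MT2A moved from 1293 to 453 and from 1415 to 733. Summed over the 8 genes, the siLuc cells had 166.8 FPKM without and 597 with DAC, and the siStau1 cells 161 and 357. The sum over all genes was also higher with DAC, at 1.13e+06 and 1.79e+06 FPKM in siLuc cells and 967545 and 1.49e+06 in siStau1 cells. The typical gene moved little, with a median log2 ratio for DAC over all tested genes of 0.23 in siLuc and 0.11 in siStau1 cells. How much of the rise of the metallothionein sum is shared with other genes was not tested.

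**Figure D1:**
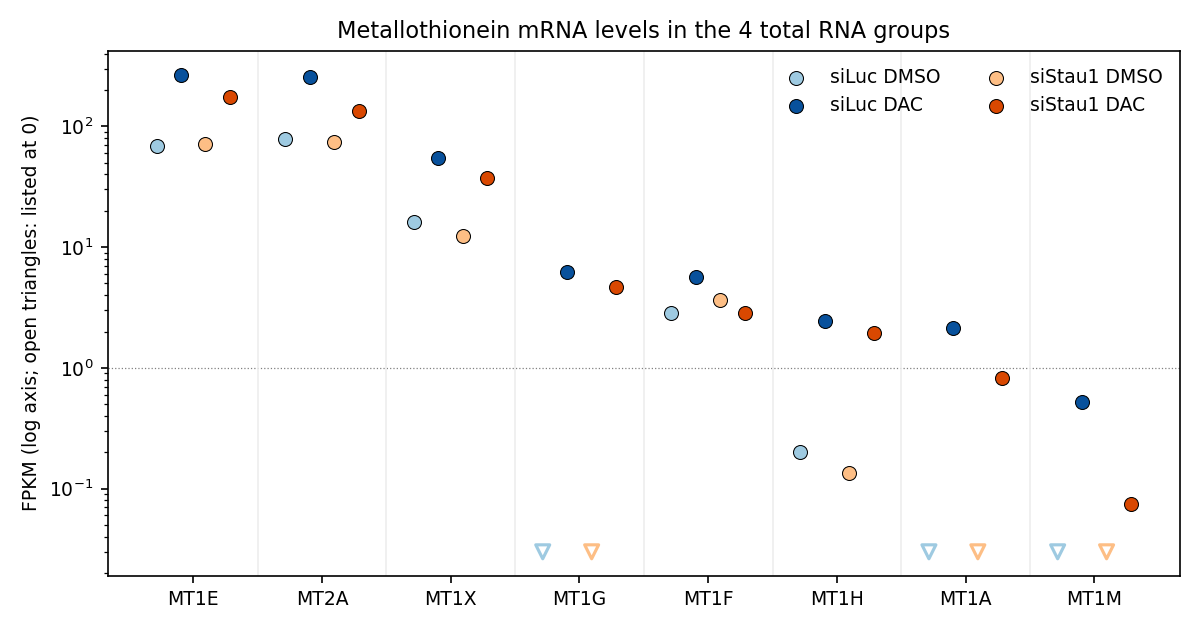
FPKM of each of the 8 metallothionein genes (log axis) in the 4 groups, 1 value per group, with open triangles for values listed at 0. MT1E and MT2A lie highest in every group, and MT1G, MT1A and MT1M are listed at 0 in both DMSO groups.

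The first comparison asked what DAC did to the metallothioneins in control cells. Relative to DMSO in siLuc cells, 5 of the 7 tested genes rose, namely MT1E, MT2A, MT1X, MT1G and MT1A, and none fell. A gene is called here where its deposited q-value is under 0.05, and in that comparison 13.5% of 17504 tested genes were called, 8.71% as higher. MT1E rose 3.89-fold, MT1X 3.38-fold and MT2A 3.27-fold, on the scale of FPKM plus 0.1. The authors' deposited table gives a q-value of 0.00162 for MT1E, MT2A and MT1G, which is the smallest it holds. For MT1A it gives a q-value of 0.0126 and for MT1X 0.0208, again from the authors' deposited table. MT1G and MT1A went from a listed 0 to 6.17 and 2.12 FPKM. The other values were also higher in the DAC group, but MT1F at 2.87 and 5.67 FPKM (q-value 0.539 in the authors' deposited table) and MT1H at 0.202 and 2.43 FPKM (0.605) were not called. MT1M was not tested. The median log2 ratio was 2.29 over the 8 genes and 0.23 over all tested genes. It lies between MT1E, at 1.96, and MT1M, at 2.63, which was not tested and is listed at 0 with DMSO, and it was 1.67 with 1 added in place of 0.1. At a q-value under 0.01 the calls were 3, MT1E, MT2A and MT1G, where 7.97% of tested genes were called. With at least 1 FPKM required in both groups the calls were also 3, MT1E, MT2A and MT1X, where 13.5% of the remaining genes were called.

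Log2 ratios in this table move with the GC content of transcripts, and the metallothioneins differ in it. The abundant genes GAPDH and ACTB had higher values with DAC, GAPDH at 4459 and 7719 FPKM and ACTB at 1041 and 2376 FPKM in siLuc DMSO and siLuc DAC. Neither was called, with q-values of 0.479 for GAPDH and 0.0564 for ACTB in the authors' deposited table. When each log2 ratio was centred on the median of genes of like GC content (20 bins), the 3.27-fold rise of MT2A, whose transcript is 63.0% G and C, shrank from a log2 ratio of 1.71 to 0.63. The median of its bin alone was 1.07. MT1E, at 53.5% G and C, went from 1.96 to 1.56, and MT1X, at 54.3%, from 1.76 to 1.36. These use the longest protein-coding transcript of each gene. With the 3-exon transcript that gave the coding sequences, MT1E has 59.5% G and C and went to 1.21, and MT1X has 50.9% and went to 1.61. MT1F, at 59.9% G and C, went from 0.96 to 0.07. Of the 3 called genes with a value above 0 in both groups, MT1E and MT1X thus remained above 2-fold with either transcript, and MT2A did not. The part of GC content in the called differences was not tested, and the calls themselves come from values that were not centred.

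The same comparison was made in cells with siRNA against Staufen1. Here 1 of the 7 tested genes rose, MT1G, from a listed 0 to 4.67 FPKM, and none fell. The authors' deposited table gives MT1G a q-value of 0.00162, and in that comparison 7.46% of 16979 tested genes were called, 4.56% as higher. With 1 FPKM or more required in both groups the count of called members was 0, where 6.48% of the remaining genes were called, since MT1G is listed at 0 in siStau1 DMSO. MT1E stood at 71.5 FPKM without and 176 with DAC, a ratio of 2.46, with a q-value (the authors' deposited table) of 0.0545. MT1X stood at 12.4 and 37.1 FPKM, a ratio of 2.96, with a q-value (the authors' deposited table) of 0.105. For MT2A, at 73.6 and 134 FPKM, the ratio was 1.82 and the q-value 0.329 in the authors' deposited table. MT1E therefore missed the threshold narrowly, while MT2A was far from it. After centring by GC content the log2 ratio of MT2A went from 0.86 to 0.10, that of MT1E from 1.30 to 0.97 and that of MT1X from 1.57 to 1.24. With the 3-exon transcript MT1E went to 0.65 and MT1X to 1.48, and MT2A was again at 0.10.

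Among the low genes in siStau1 cells, MT1A went from a listed 0 to 0.827 FPKM and MT1H from 0.134 to 1.96 FPKM, with q-values of 0.149 and 0.463 in the authors' deposited table. MT1F was lower with DAC, at 3.67 and 2.85 FPKM, and was not called. Without adjustment, 4 of the 7 had a Cuffdiff p-value under 0.05 in the authors' deposited table, as did 3228 of all 16979 tested genes. The median log2 ratio was 1.43 over the 8 genes and 0.11 over all tested genes.

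**Figure D2:**
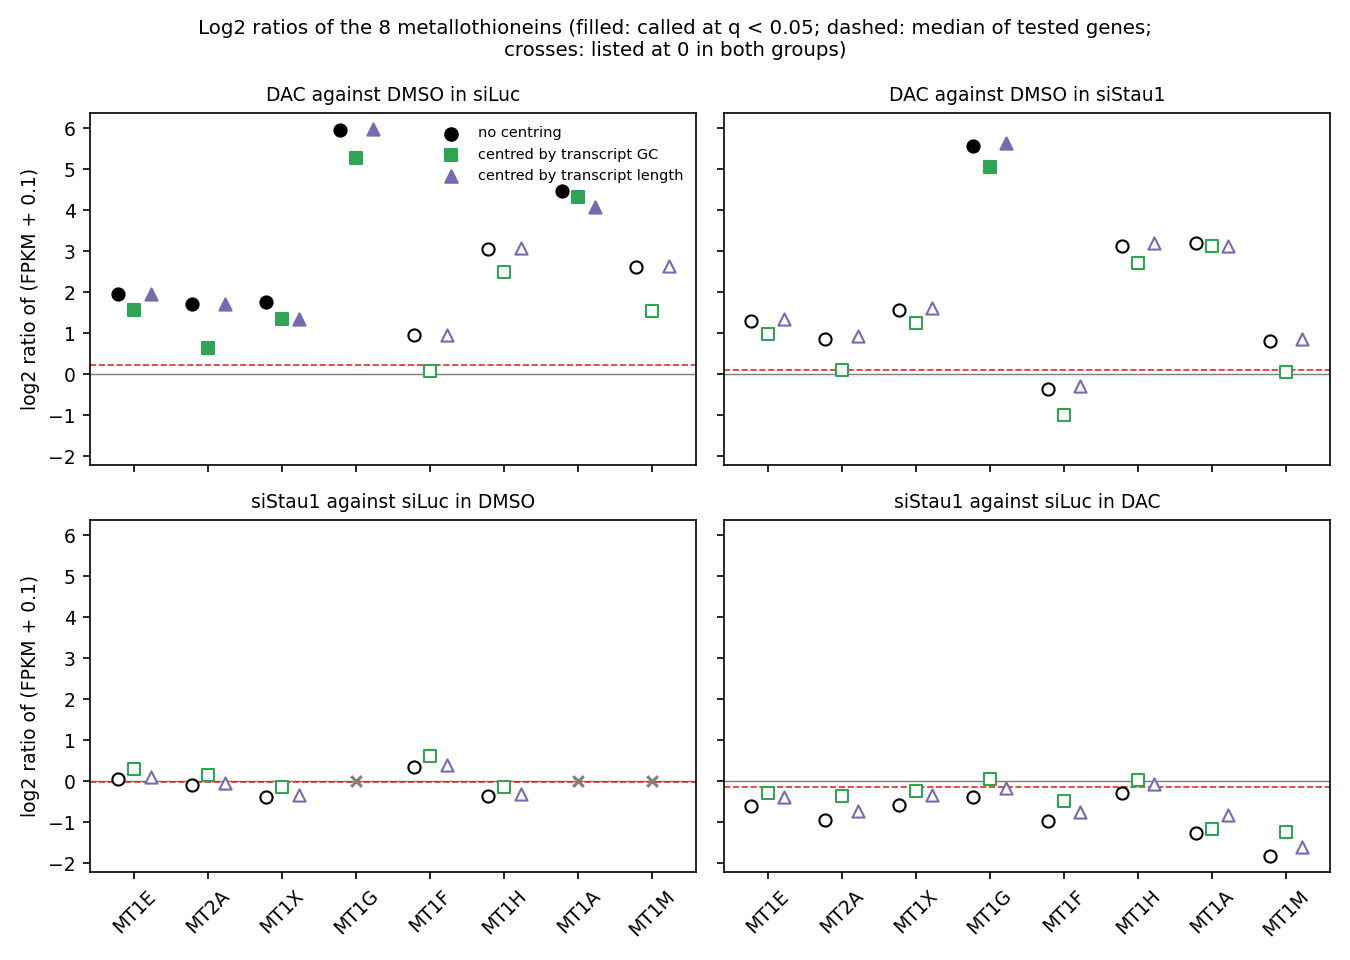
Log2 ratios of (FPKM + 0.1) for the 8 genes in the 4 comparisons, without centring (circles), centred by transcript GC content (squares) and by transcript length (triangles). Filled points have a deposited q-value under 0.05, the dashed line is the median of all tested genes, and crosses are genes listed at 0 in both groups: with DAC 5 genes are called in siLuc cells and 1 in siStau1 cells, and the panels of siStau1 against siLuc hold no call.

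The groups labelled siStau1 were compared with siLuc first without DAC. STAU1, the targeted gene, stood at 35.5 FPKM in siLuc DMSO and 30.0 in siStau1 DMSO, and at 33.7 in siLuc DAC and 27.1 in siStau1 DAC. The authors' deposited table calls neither difference, with q-values of 0.767 and 0.685. STAU1 RNA was lower in both, but the knockdown that the labels name did not pass the test, and siStau1 stands here for the label of the libraries. In DMSO none of the 4 tested metallothioneins was called by Cuffdiff in the authors' deposited table, and none had an unadjusted p-value under 0.05, where 0.799% of 15893 tested genes were called. Over all genes, 684 of the 15893 had an unadjusted p-value under 0.05. MT2A stood at 78.7 and 73.6 FPKM, MT1E at 68.8 and 71.5, MT1X at 16.2 and 12.4, and MT1F at 2.87 and 3.67 in siLuc and siStau1. The summed level of the 8 genes in siStau1 was 0.967 of that in siLuc.

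With DAC, all 8 metallothioneins had a lower FPKM in siStau1 than in siLuc cells, but none of the 7 tested was called by Cuffdiff in the authors' deposited table, where 0.904% of 17263 tested genes were called. The summed level in siStau1 was 0.598 of that in siLuc. The sum over all genes was also lower, at 1.49e+06 FPKM in siStau1 DAC and 1.79e+06 in siLuc DAC. MT2A, at 257 and 134 FPKM, was the only gene of the 8 with an unadjusted p-value under 0.05, at p = 0.0112 (q-value 0.107) in the authors' deposited table. Over all genes, 1199 of the 17263 tested had an unadjusted p-value under 0.05. A log2 ratio of -0.94 for MT2A became -0.35 after centring by GC content. MT1E, at 268 and 176 FPKM, had a log2 ratio of -0.61, and MT1X, at 55.1 and 37.1 FPKM, one of -0.57, with q-values of 0.430 and 0.565 in the authors' deposited table. The ratios of MT1G and MT1H, at -0.39 and -0.30, turned to 0.05 and 0.03 with GC centring on the longest transcript, and to -0.13 and -0.03 on the 3-exon transcript, so the common direction did not hold for these genes under every scaling. The median log2 ratio was -0.78 over the 8 genes and -0.14 over all tested genes, and -0.31 over the 8 after GC centring.

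The DAC effect was set side by side in the 2 siRNA backgrounds, by subtracting the siLuc log2 ratio from the siStau1 log2 ratio. The result was -0.85 for MT2A, -0.66 for MT1E, -0.19 for MT1X, -1.31 for MT1F, -0.39 for MT1G, -1.26 for MT1A and -1.82 for MT1M, and 0.07 for MT1H. The difference was below 0 for 7 of the 8 genes, with a median of -0.76, against -0.016 over the 15956 genes tested in both backgrounds. MT1X turned to 0.27 when centred by transcript length and MT1H to -0.13 with a pseudocount of 1. MT1M ran from -0.50 with a pseudocount of 1 to -2.64 with 0.01, and MT1A from -0.77 to -1.35. For MT1G, MT1A and MT1M, listed at 0 in both DMSO groups, this difference is the same quantity as the siStau1 to siLuc ratio with DAC. The table leaves no spread from which to test the difference, so a weaker DAC effect in the groups labelled siStau1 was not shown, although 5 genes passed the threshold in siLuc and 1 in siStau1.

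Against siLuc DMSO, the siStau1 DAC group had 2 called genes of 7 tested, MT1G and MT1E, both higher, where 4.98% of 16909 tested genes were called, 4.02% as higher. MT1G went from a listed 0 to 4.67 FPKM (q-value 0.00162) and MT1E from 68.8 to 176 FPKM (0.0194) in the authors' deposited table. The stricter limit of 0.01 left MT1G as the call, where 3.04% of tested genes were called, and with at least 1 FPKM in both groups it was MT1E, where 2.86% were called. MT2A, at 78.7 and 134 FPKM, MT1X, at 16.2 and 37.1, and MT1F, at 2.87 and 2.85, were not called. The comparisons share groups with each other, so calls in more than one of them are not independent.

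Along the cluster, the genes called with DAC did not form a single run. MT2A is the first of the 8 along the chromosome and MT1X the last, and MT1F and MT1H, which were not called, lie between called genes. Of the 13 further records with a metallothionein symbol, 3 reached 1 FPKM in some group and 5 were listed at 0 in all 4. MT1L (chr16:56617476-56618818), a transcribed pseudogene between MT2A and MT1E, was listed at 0 in both DMSO groups, at 3.70 FPKM after DAC in siLuc cells and at 1.56 in siStau1 cells. It was called as higher with DAC in both siRNA backgrounds, with q-values of 0.00162 and 0.00525 in the authors' deposited table, with zeros and calls in the same groups as MT1G. MT1P3, a processed pseudogene on chromosome 20, went from a listed 0 to 6.11 FPKM with DAC in siLuc cells and from 4.92 to 2.04 in siStau1 cells, and was not called. MT2P1, a processed pseudogene on chromosome 4, went from a listed 0 to 1.19 FPKM and from 0.535 to a listed 0, and was not tested.

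Calls were also counted in the genes around the cluster. None of 12 neighbours on chromosome 16 was called by Cuffdiff in any of the 5 comparisons in the authors' deposited table, and none of the 9 tested had an unadjusted p-value under 0.05. Over all genes, 5056 of 17504 tested had such a p-value with DAC in siLuc, and 3228 of 16979 in siStau1. With 9 genes tested, a count of 0 is near the 13.5% and 7.46% called with DAC over all genes, so it does not set the neighbours apart. Their median log2 ratio with DAC was 0.43 in siLuc and 0.45 in siStau1. NUP93, a nuclear pore component, stood at 78.6 FPKM in siLuc DMSO and 103 in siLuc DAC, a level close to that of MT2A before treatment. BBS2, a subunit of the BBSome, stood at 23.8 and 11.5 FPKM in the same groups. The difference between the metallothioneins and their neighbours was not tested.

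**Figure D3:**
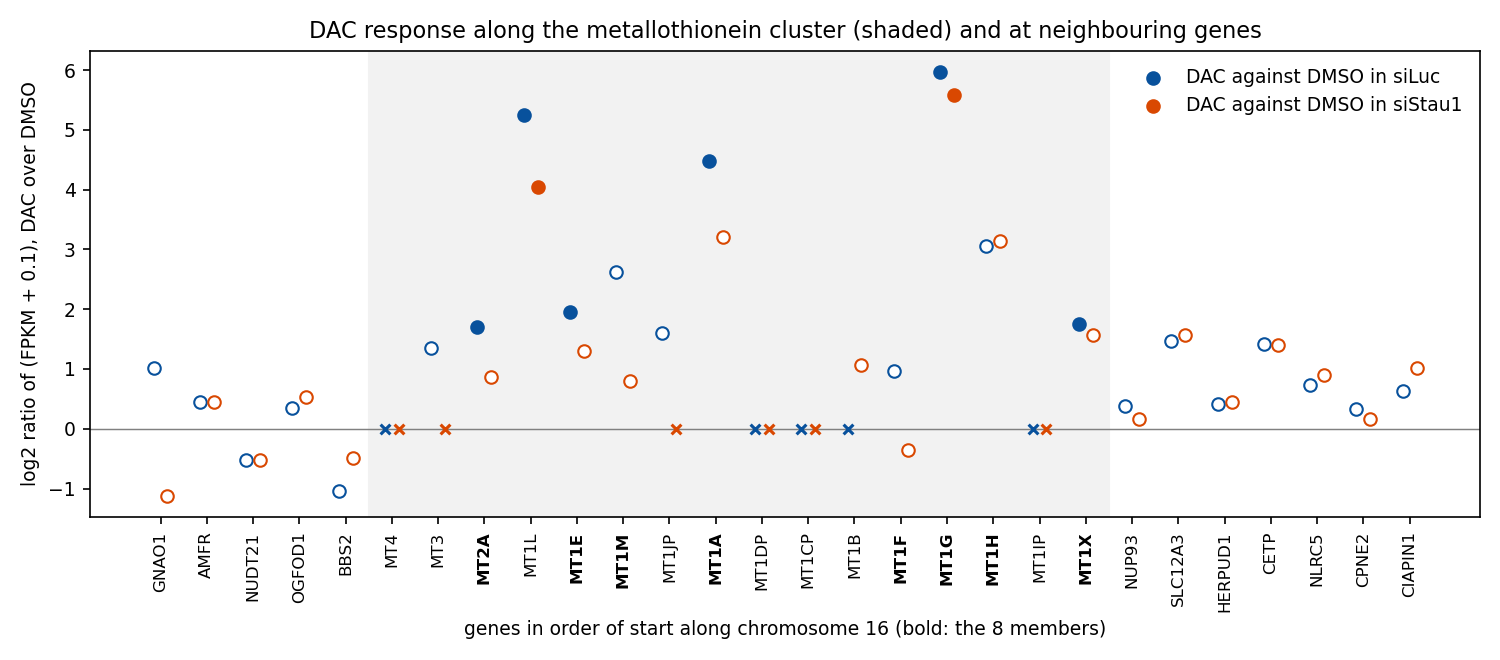
Log2 ratio of (FPKM + 0.1) for DAC against DMSO in gene order along chromosome 16, with the metallothionein cluster shaded and crosses for genes listed at 0 in both groups. The called genes MT2A, MT1E, MT1A, MT1G and MT1X and the pseudogene MT1L lie within the cluster, and the 12 neighbours on either side hold no call.

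Genes of zinc handling were examined next. Of 25 genes for zinc transporters and MTF1, 19 were tested, and with DAC in siLuc none rose and 1 fell, SLC39A10, a zinc importer, from 29.4 to 8.14 FPKM. A count of 0 higher among 19 is near the 8.71% called as higher over all genes, and 4.78% were called as lower. The list's median log2 ratio was 0.17. GC centring took the log2 ratio of SLC39A10 in siLuc from -1.84 to -1.16. In siStau1 cells SLC39A10 fell from 60.2 to 13.9 FPKM and SLC30A1 rose from 2.91 to 8.12 FPKM, with q-values of 0.00162 and 0.00732 in the authors' deposited table. In that comparison 4.56% of all tested genes were called as higher and 2.89% as lower. SLC30A1 is the zinc exporter of the plasma membrane and a known target of MTF1. In siLuc cells it stood at 3.30 FPKM without and 5.66 with DAC and was not called, at a q-value (the authors' deposited table) of 0.248. MTF1 itself stood at 7.16 FPKM without and 9.69 with DAC in siLuc cells and at 7.45 and 7.72 in siStau1 cells, with DAC q-values of 0.828 and 0.983 in the authors' deposited table. No gene of the list was called for siStau1 against siLuc, with or without DAC.

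Of 11 copper handling records, 1 fell with DAC in siLuc, the superoxide dismutase SOD1, from 581 to 291 FPKM, and none was called in siStau1. Over all tested genes, 8.71% were called as higher and 4.78% as lower with DAC in siLuc, and 4.56% and 2.89% in siStau1. Of 10 genes reported here that NRF2 controls in oxidative stress or that form its pathway, 2 rose with DAC in siLuc and none fell. These were HMOX1, heme oxygenase, from 10.4 to 54.0 FPKM, and OSGIN1 from 4.30 to 21.3 FPKM. GC centring took the log2 ratio of HMOX1 from 2.37 to 1.62 and that of OSGIN1 from 2.28 to 1.21. In siStau1 cells HMOX1 stood at 8.14 FPKM without and 20.6 with DAC and was not called, at a q-value (the authors' deposited table) of 0.115. HMOX1 was lower in siStau1 DAC, at 20.6 FPKM, than in siLuc DAC, with a q-value (the authors' deposited table) of 0.00162. When p-values were adjusted within that comparison alone, HMOX1 had 0.0719, and no gene of the table was called.

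Of 8 genes linked to the glucocorticoid receptor, 7 were tested. SGK1, a kinase, and DUSP1, a phosphatase of MAP kinases, rose with DAC in both backgrounds, where 8.71% (siLuc) and 4.56% (siStau1) of all tested genes were called as higher. In siLuc cells SGK1 went from 2.65 to 18.9 FPKM and DUSP1 from 4.79 to 41.3. In siStau1 cells SGK1 went from 2.51 to 12.8 FPKM and DUSP1 from 3.58 to 21.5. FKBP5, a chaperone of the receptor, fell in siLuc, from 25.4 to 11.6 FPKM, so the list did not move in 1 direction. Of 10 heat shock genes, 9 were tested. In siLuc HSPA1A rose from 1.33 to 9.32 FPKM and HSPB1 from 94.1 to 188, and HSP90AA1 fell from 657 to 233. Over all tested genes 8.71% were called as higher there and 4.78% as lower. GC centring turned the log2 ratio of HSPB1 from 1.00 to -0.22 and the median of the heat shock list from 0.25 to -0.20. It took the log2 ratio of HSPA1A from 2.72 to 1.83. None of the 10 was called in siStau1. HSPA1A has a near-identical copy, HSPA1B, so its value is uncertain. In siLuc cells HSPA1B was lower with DAC, at 63.1 FPKM without and 36.8 with it, and was not called. The median log2 ratios with DAC in siLuc were 0.05 for copper handling, 0.05 for the 10 NRF2 genes, 0.25 for heat shock and 0.86 for the glucocorticoid list, against 2.29 for the metallothioneins. After GC centring these medians were -0.08, 0.07, -0.20 and 0.49, against 1.56. Whether the counts of calls in these lists depart from the shares over all genes was not tested.

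**Figure D4:**
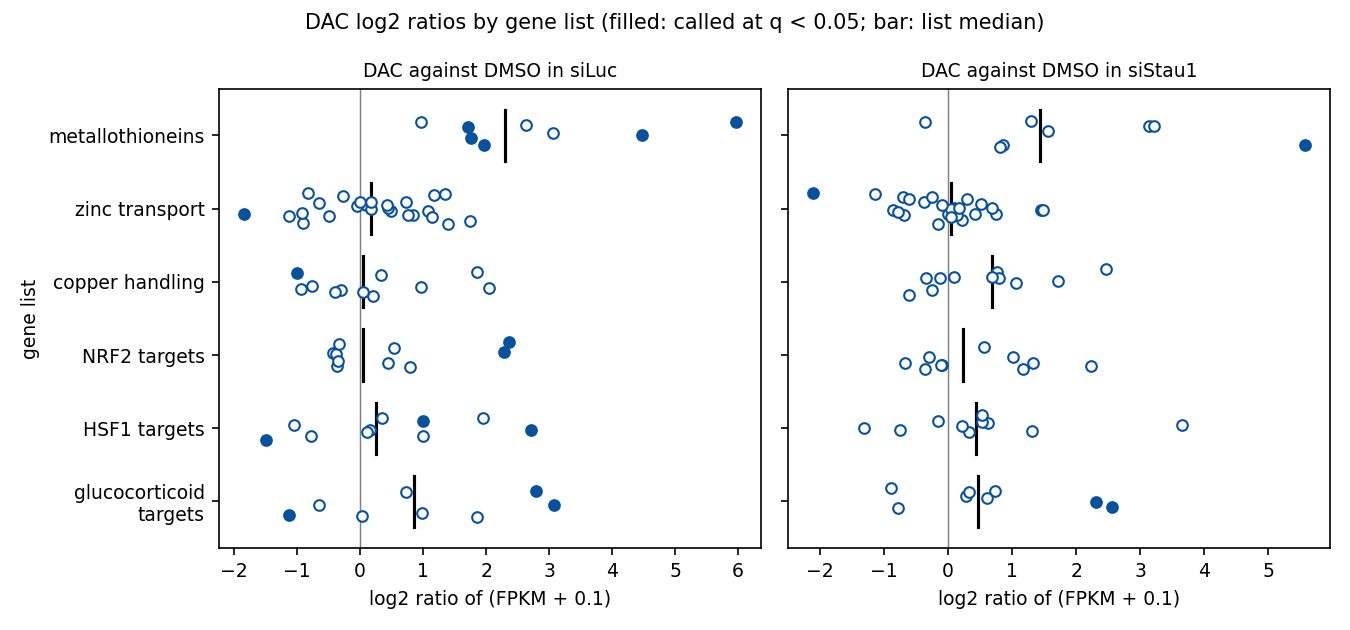
Log2 ratios of (FPKM + 0.1) for DAC against DMSO, by gene list, in siLuc and siStau1 cells, with a point per gene and a bar at the list median. Without centring, the metallothionein median is 2.29 in siLuc and 1.43 in siStau1, and those of the zinc list are 0.17 and 0.05.

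Across the 4 groups, the genes most like MT2A were sought among the 11935 genes with at least 1 FPKM in every group, by the distance between centred log2 profiles. The nearest were TELO2 at a distance of 0.036, MRPS12 at 0.054, KLF16 at 0.082, EGLN2 at 0.084 and PLA2G15 at 0.086. Their transcripts hold between 58.4% and 67.8% G and C, beside 63.0% for MT2A. MT1E came at rank 706, MT1X at 1044 and MT1F at 3781, so many genes outside the family had a profile nearer to MT2A than MT1E did. A second reference was the mean profile of the 7 members with at least 1 FPKM in any group. Its nearest genes were SGK1 (46.5% G and C), MICAL1 (59.8%), SNORA55 (51.9%), FAM222B (52.9%) and VSIR (59.2%). Against that mean MT1X came at rank 261, MT1E at 267, MT2A at 770 and MT1F at 4501. Each of these genes is itself part of the mean, so its rank is not independent of it. The mean includes MT1G and MT1A, so it depends on the 0.1 added to their listed zeros. With 4 points per profile these distances are a description.

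The label of the cells was set against marker genes. EPCAM, CDH1, KRT8, KRT18, KRT19, CLDN4 and CDX2 of the colorectal epithelium were above 1 FPKM in all 4 groups, and VIL1, at up to 0.198 FPKM, was not. The 8 markers summed to 2637 FPKM without and 8256 with DAC in siLuc cells, and to 2172 and 5975 in siStau1 cells, a sum carried by KRT8, KRT18 and KRT19. In siLuc cells 6 of the 8 were higher and 2 lower with DAC. Of the 7 tested, KRT19 was called as higher and EPCAM, at 259 and 117 FPKM, as lower. GC centring took the log2 ratio of KRT19 there from 1.40 to 0.33. In siStau1 cells KRT18 and KRT19 were called as higher, of 7 tested. The 6 markers of leukocytes, fibroblasts and endothelium summed to 1.76 FPKM without and 10.6 with DAC in siLuc cells. In siStau1 cells they summed to 0.922 and 8.37 FPKM, and most of each sum was COL1A1. PTPRC, CD3E, COL3A1, PECAM1 and VWF were under 1 FPKM in every group, and 3 of the 6 were listed at 0 in siLuc DMSO. With DAC, PECAM1 was called as higher in siLuc cells, of 3 tested, and PTPRC, COL1A1 and VWF in siStau1 cells, of 4 tested. Over all tested genes 8.71% were called as higher and 4.78% as lower with DAC in siLuc, and 4.56% and 2.89% in siStau1. The part of such markers in the metallothionein values was not tested. Fewer cells that express a gene and less RNA of it per cell cannot be told apart in such bulk samples.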

How the data were processed

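Total RNA of 8 HCT116 libraries in 4 groups was compared. Per the file headers, the authors deposited FPKM values, p-values and q-values in the layout of Cuffdiff, with 1 FPKM per gene and group. The submitters' processing notes name bcl2fastq 2.20, HISAT2 2.1.0, featureCounts, DESeq 1.36.0, Cuffdiff 2.2.1, Cuffnorm 2.2.1 and hg38, without roles. The deposited q-value was recomputed as the Benjamini-Hochberg value over 102180 tests in 6 comparisons, of which 5 are used. Calls are the authors' at a q-value under 0.05. The planned tests per library could not be made from 1 value per group. Log2 ratios used FPKM plus 0.1, and were also centred within 20 bins of transcript GC content or length. The GC content and length are those of each gene's longest protein-coding transcript in GENCODE release 29, which holds all 58699 identifiers, and the 3-exon transcript of each member was tried as well. The recomputation and the centring were tested on simulated data. Python 3.11.15, pandas 2.3.3, numpy 2.4.6, biopython 1.88 and matplotlib 3.10.9 were used. The members and lists were chosen with earlier results of these data known. All 8 members are named, as are other metallothionein genes with at least 1 FPKM in any group, list genes called in any comparison, MTF1 and SLC30A1. So are the 5 profiles nearest to MT2A and the 5 nearest to the mean of the members with at least 1 FPKM in any group. GAPDH, ACTB, RPS29, NUP93, BBS2 and the other genes named outside this rule were picked after their values were seen. The 3 tables of repeat elements from J2 antibody libraries were not used. A gene of the planned NRF2 list is not reported here, and the counts and median of that list leave it out.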

Additional observations from a re-analysis of the deposited data

How the results depend on the processing

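No paired analysis was possible because the table gives 1 value per group, and for the same reason no fit left out a replicate and no other count model or normalization per library was run. With DAC in siLuc, the 5 called metallothioneins became 3 at a q-value under 0.01 and 3 when at least 1 FPKM was required in both groups, and the median log2 ratio went from 2.29 to 1.67 with a pseudocount of 1 and to 1.56 after GC centring (1.58 with the 3-exon transcripts). With DAC in siStau1, the 1 call became 0 when at least 1 FPKM was required in both groups, and the median went from 1.43 to 2.33 with a pseudocount of 0.01. For siStau1 DAC against siLuc DMSO, the 2 calls became 1 at a q-value under 0.01 and 1 under the FPKM minimum, and the median went from 1.27 to 2.22 with a pseudocount of 0.01. The FPKM minimum removes genes listed at 0 in a group by construction, MT1G and MT1A among them. The other 49 of 59 summary values were counted as unchanged, as were 330 of 395 values of single genes. A count was unchanged if it stayed within 1.5 times of the main count. A log2 ratio was unchanged if the fold it stands for stayed within 1.5 times of the main fold. A small log2 ratio can shrink a good deal under that rule. For siStau1 against siLuc with DAC, a median of -0.78 that became -0.31 after GC centring counted as unchanged. Among called genes, HSPB1 with DAC in siLuc was the only value to change sign, to -0.22 after GC centring. Length centring, centring on the 3-exon transcripts, counts of calls after centring, centred differences of DAC effects and the alternatives for list genes were chosen after seeing the data. The depth behind the FPKM values is unknown.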
